A study of Rattus with 6 samples.

Results

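The 42 genes described here build and run the apparatus that separates chromosomes at cell division: the centromere and kinetochore, the spindle checkpoint, the mitotic kinases, the spindle and midzone proteins, and condensin I. They were taken by symbol from a list, and 42 of 42 were found among the 30211 genes of the deposited count table. All 42 passed the filter on low counts that left 14111 genes tested. RNA was sequenced from wild-type rat bone marrow mesenchymal stem cells (BMSC), the cultured stromal cells that can give rise to bone, fat and cartilage. One group of 3 libraries was a control and the other 3 came from cells given 100 uM dexamethasone, a synthetic glucocorticoid, and both were collected after 4 days in culture. The strain, age and sex of the rats, the passage of the cells and any vehicle were not stated in the sources used here. Whether replicates were separate cultures is not stated either, so each p-value reflects the spread among these libraries alone, which may be technical.

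In a dividing cell, kinetochores assemble on centromeric chromatin marked by a special histone and catch spindle microtubules through the Ndc80 complex. A checkpoint holds the cell in metaphase until every kinetochore is attached, after which the anaphase-promoting complex (APC/C) releases separase and the chromosomes part. Condensin compacts the chromosomes beforehand, and the midzone and cleavage furrow divide the cytoplasm afterwards. Most of these genes are transcribed mainly from late S phase to mitosis, so in bulk RNA their level depends on how many cells are in those phases. In bulk libraries such as these, more cells in those phases and more RNA per such cell cannot be told apart.

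Library totals ran from 34835072 to 41676315 counts. Because 1 label field (treatment) says DEX for every sample, groups were taken from the titles, and an established glucocorticoid receptor target was read in each library. Fkbp5 stood at 69.0, 71.0 and 69.3 CPM (counts scaled by TMM to a common library size) in the controls and at 1290, 1390 and 1430 CPM in the libraries labelled dexamethasone. All 12 listed stromal markers had counts. Those with the smallest p were Vim (log2 1.30), Col3a1 (1.12) and Pdgfrb (-2.17). Of 16 macrophage markers, 7 were tested, of which 0 rose and 4 fell, beside 31.7% falling over all tested genes. The smallest p were those of Cd74, Cd53 and Cd68 (log2 -3.57, -3.43 and -1.25), from control means of 1.74, 1.4 and 1.21 CPM. Cd14, named after its value was seen, stood highest of the list and did not pass (7.27 CPM in the controls, 7.64 CPM with dexamethasone). Another 5 of the 16 had no count in any library, including Adgre1, Tyrobp and C1qa, which are named after their values were seen. The 16 macrophage markers summed to 13.2 to 14.1 CPM in the controls and 9.16 to 9.83 CPM with dexamethasone. The stromal list (5 rose, 6 fell) summed to 8022 to 8161 CPM and 10795 to 11106 CPM. Endothelial, erythroid, lymphoid and granulocyte lists each summed to at most 2.10 CPM in every library, and of their genes only Vwf, Tek, Alas2, Klf1 and Ngp had counts enough to be tested (log2 -2.15, 0.81, -1.25, -0.46 and -0.58). Klf1 and Ngp did not pass, and the calls of Tek and Alas2 were lost in several other settings. The part of these cell types in the results was not tested.

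The 42 genes were higher with dexamethasone almost without exception. Of the 42, 41 rose, 0 fell and 1 (Bub3) did not pass, at an adjusted p below 0.05 (edgeR's quasi-likelihood test, Benjamini-Hochberg over 14111 genes). Over all tested genes, 64.0% passed in either direction, 32.3% rose and 31.7% fell. The median log2 fold change of the 42 was 1.42, or 2.68-fold, beside a median of -0.00 over all tested genes. Changes ran from 0.06 to 2.91 on the log2 scale, with the middle of the genes between 1.15 and 1.77 (quartiles). At least 2-fold rises numbered 34 (8.65% of all tested genes), and at least 4-fold rises 9 (2.93%). Every dexamethasone library lay above every control library for 41 of the 42, where 33.8% of all tested genes were higher without overlap. Summed over the 42 genes, the level was 2681 ± 25.1 CPM in the controls and 6443 ± 31.3 CPM with dexamethasone (SD, n = 3), a ratio of 2.40. Replicates differed little: the coefficient of variation of a gene within a group had a median of 3.53% in the controls and 3.05% with dexamethasone. At a preset coefficient of variation of 0.2, wider than the spread between replicates for every member but Cenpm, 36 of the 42 rose (14.1% of all tested genes), and 36 rose against a fold of 1.5 (11.0%). The same 5 genes, Ube2c, Hmmr, Cenpn, Smc4 and Cenpk, lost their call under each of these settings.

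**Figure D1:**
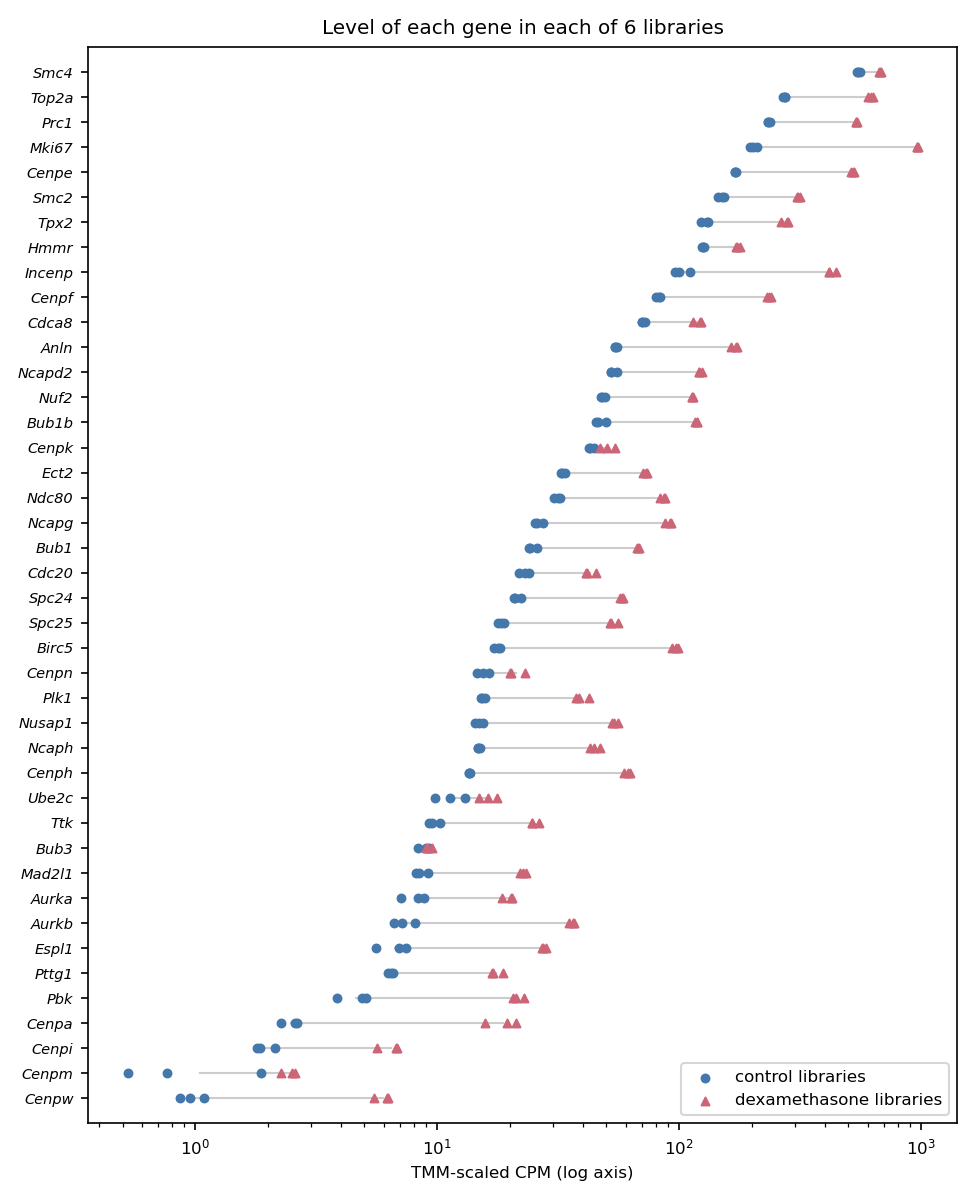
Level of the 42 genes in each of 6 libraries as TMM-scaled CPM on a log axis, ordered by the control mean. Circles are the 3 control libraries, triangles the 3 dexamethasone libraries, and grey lines join the group means. The triangles lie to the right of the circles for all but Bub3, by a wide gap for Mki67 and Birc5 and a narrow one for Smc4 and Cenpk.

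Mki67 and Top2a are the usual marks of cycling cells. Mki67 encodes Ki-67, which coats mitotic chromosomes and keeps them apart (chromosome 1, 207993895 to 208020454). It had 210.1, 201 and 195 CPM in control replicates 1 to 3 and 959.9, 965 and 964 CPM in dexamethasone replicates 1 to 3. Every dexamethasone library was thus more than 4 times any control library's level, and the rise was 2.25 ± 0.031 on the log2 scale (SE, adjusted p = 6.2e-45). Top2a, the topoisomerase that untangles sister DNA (chromosome 10, 86901007 to 86932154), was at 273, 269 and 273 CPM without dexamethasone and at 604, 629 and 619.6 CPM with it. Its rise, 1.18 ± 0.019 (adjusted p = 6.5e-35), was smaller than that of Mki67 by about 1 log2 unit, with errors far below that gap.

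The inner kinetochore held both the steepest rises and some of the smallest. All 7 genes rose, with a median of 1.73 on the log2 scale and a range of 0.23 to 2.91. Cenpa, the histone H3 variant that marks the centromere (chromosome 6, 27072166 to 27080856), had 2.25, 2.63 and 2.57 CPM in control libraries and 15.7, 21.1 and 19.4 CPM after dexamethasone. That was the steepest rise of the 42, 7.50-fold (log2 2.91 ± 0.14, adjusted p = 9.8e-24), from a low control level. Cenpw, a small histone-fold protein that pairs with CENP-T on centromeric DNA, followed, from 1.09, 0.861 and 0.949 CPM to 5.50, 6.24 and 6.21 CPM (log2 2.62 ± 0.11). Its controls held 114 counts in all, and RefSeq lists a gene named Cenpwl1 with which its reads could be shared.

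Cenph, Cenpi, Cenpk and Cenpm encode subunits of the same inner kinetochore subcomplex, and they did not rise by the same amount. Cenph (chromosome 2, 30766590 to 30780121) stood at 13.6 CPM in each control library and at 58.9, 61.1 and 62.3 CPM with dexamethasone, a log2 fold change of 2.16 ± 0.024 (adjusted p = 1.5e-33). Cenpi rose from 2.12, 1.80 and 1.85 CPM to 6.82, 6.78 and 5.61 CPM (1.73 ± 0.12). Cenpk (chromosome 2, 34312766 to 34335776) moved little, from 42.3, 44.3 and 42.6 CPM to 50.5, 54.4 and 47.0 CPM. Its groups did not overlap, and it passed with a log2 fold change of 0.23 ± 0.064 (adjusted p = 5.5e-05), a call lost at a preset coefficient of variation of 0.2 (adjusted p = 0.567). Of its exon bases, 329 are shared with Ppwd1 on the other strand, which stood at 51.1 ± 1.52 CPM without and 54.3 ± 2.96 CPM with the drug (SD, n = 3), short of the threshold (adjusted p = 0.0899). The strand setting of the counting was not stated in the sources used here, so part of the Cenpk reads may belong to Ppwd1.

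Cenpm was the least precise of the 42. It had 1.87, 0.760 and 0.525 CPM in the controls (72, 30 and 21 counts) and 2.51, 2.27 and 2.59 CPM with dexamethasone. Control replicate 1 lay far above the other controls, though still below every dexamethasone library. The log2 fold change was 1.23 ± 0.52 (adjusted p = 0.00267). It was 1.93 without that library, 1.05 without control replicate 2 and 0.91 without control replicate 3, and adjusted p was at most 0.0427 over 14 other settings. Cenpn, which reads the CENP-A nucleosome, had 15.4, 14.6 and 16.3 CPM against 23.1, 19.96 and 20.2 CPM, a log2 fold change of 0.45 ± 0.082 (adjusted p = 5.3e-07) that was not called at a preset coefficient of variation of 0.2 (adjusted p = 0.179).

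The outer kinetochore genes among the 42 moved more evenly. Cenpe, a kinesin motor that carries chromosomes to the metaphase plate (chromosome 2, 240396152 to 240454747), had 171, 169.6 and 170.1 CPM in control libraries and 512, 521 and 528 CPM after dexamethasone. Cenpf, a long coiled-coil protein of the same corona, had 82.3, 82.9 and 80.4 CPM against 229.9, 239 and 234 CPM. Their rises of 1.61 ± 0.013 and 1.52 ± 0.021 on the log2 scale were close to each other and to the median of the 42.

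The Ndc80 complex, the rod that grips the microtubule end, is built from Ndc80, Nuf2, Spc24 and Spc25 in equal numbers. Its genes rose by 1.45 ± 0.034, 1.23 ± 0.017, 1.44 ± 0.031 and 1.54 ± 0.041 on the log2 scale. Ndc80 had 32.0, 31.5 and 30.3 CPM in control libraries and 87.7, 82.8 and 86.3 CPM after dexamethasone. Nuf2 had 49.3, 47.8 and 47.6 CPM against 112, 114 and 113 CPM. Spc24 stood at 20.9, 20.8 and 22.1 CPM against 56.9, 58.2 and 58.6 CPM, and Spc25 at 18.4, 18.8 and 17.8 CPM against 52.0, 55.7 and 51.9 CPM. All 4 had every dexamethasone library above every control, and Nuf2 rose least.

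Levels of different genes can be set side by side only per length, here as CPM per kb of exon in the table. On that scale the 4 Ndc80 subunits in the controls were 9.13 ± 0.257 for Ndc80, 25.5 ± 0.491 for Nuf2, 24.6 ± 0.845 for Spc24 and 14.6 ± 0.425 for Spc25 (SD, n = 3). With dexamethasone they were 24.97 ± 0.723, 59.8 ± 0.417, 66.9 ± 1.001 and 42.5 ± 1.73. The order of Ndc80 and Spc25 below the other subunits was the same in both groups, while Spc24 and Nuf2, which lay within about 1 CPM per kb of each other in the controls, were apart with dexamethasone. The ratio of Spc24 to Spc25 within a library was 1.60 to 1.81 in the controls and 1.51 to 1.63 with dexamethasone, and these ranges overlapped. The ratio of Ndc80 to Nuf2 did not overlap, at 0.352 to 0.364 against 0.401 to 0.430. In all, 22 such ratios between genes were computed, chosen with the fold changes known. A ratio without overlap therefore restates fold changes already given and adds no separate support. The exact two-sided permutation test of 3 against 3 libraries cannot go below p = 0.10, so ratios are given by their ranges. After adjustment over the 22, the smallest p of that test was 0.122.

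The spindle checkpoint split into genes that rose by nearly the same amount and Bub3. Bub1, a kinase that recruits checkpoint proteins to the kinetochore, had 23.9, 25.7 and 24.2 CPM in control libraries and 67.5, 66.7 and 67.9 CPM after dexamethasone. Bub1b, which encodes the BubR1 subunit of the checkpoint's inhibitor complex, had 45.3, 49.8 and 46.3 CPM against 116, 119 and 118 CPM. Mad2l1, which encodes Mad2, the subunit that binds Cdc20, had 8.16, 9.12 and 8.37 CPM against 22.6, 23.3 and 22.0 CPM. Ttk, the Mps1 kinase that starts the signal, had 9.20, 10.3 and 9.47 CPM against 24.6, 26.3 and 24.6 CPM. Their log2 fold changes were 1.45 ± 0.033, 1.32 ± 0.043, 1.40 ± 0.054 and 1.38 ± 0.058, each gene with no overlap between groups.

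Bub3, the adaptor that carries Bub1 and BubR1 to the kinetochore (chromosome 1, 203524426 to 203557337), had 8.94, 9.25 and 8.34 CPM in control libraries and 8.98, 9.53 and 9.11 CPM after dexamethasone. The groups overlapped, and the log2 fold change was 0.06 ± 0.050 (SE, adjusted p = 0.613), which leaves a small change possible. The adjusted p was 0.381 to 1 over 14 other settings. Within a library, Bub1b per kb was 3.38 to 3.70 times Bub3 in the controls and 8.32 to 8.67 times with dexamethasone. Bub1 was 1.62 to 1.76 times Bub3 against 4.24 to 4.56 times.

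Of the mitotic kinases, Plk1, which drives entry into mitosis and spindle assembly, had 15.1, 15.8 and 15.3 CPM in control libraries and 38.4, 42.2 and 37.5 CPM after dexamethasone. Aurka, the Aurora A kinase of the spindle poles, had 7.05, 8.84 and 8.29 CPM against 20.1, 18.6 and 20.3 CPM. Their log2 fold changes were 1.35 ± 0.055 and 1.29 ± 0.10. Pbk, a kinase active in mitosis, rose more steeply, from 3.86, 4.86 and 5.10 CPM to 20.6, 22.9 and 21.1 CPM (2.22 ± 0.13, adjusted p = 5.5e-25). RefSeq lists 3 pseudogenes named after Aurka and 1 after Pbk, and how reads that map to several places were counted was not stated in the sources used here. The same limit holds for every one of the 9 members with such a copy or pseudogene by symbol. The others are Cenpw, Mki67, Nusap1, Anln, Prc1, Tpx2 and Ube2c.

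The chromosomal passenger complex corrects faulty attachments and later moves to the midzone. It was the role group with the highest median, 2.18 on the log2 scale. Birc5, which encodes survivin (chromosome 10, 106856097 to 106864413), had 17.9, 18.1 and 17.1 CPM in control libraries and 96.7, 93.0 and 98.8 CPM after dexamethasone. That was a rise of 2.44 ± 0.035 (adjusted p = 4.8e-38), and every dexamethasone library lay above 5 times any control library. Aurkb, the Aurora B kinase of the complex, had 8.11, 7.12 and 6.64 CPM against 36.6, 34.96 and 36.4 CPM (2.30 ± 0.086). Incenp, the scaffold, had 96.3, 111 and 99.5 CPM against 442, 415 and 418 CPM (2.06 ± 0.068).

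Cdca8, which encodes borealin, the other targeting subunit of the complex, rose far less. It had 70.2, 70.2 and 72.1 CPM in control libraries and 122, 123 and 114 CPM after dexamethasone, a log2 fold change of 0.75 ± 0.036 (adjusted p = 1.3e-22). Per kb of exon it had the highest control level of the 4, at 46.7 ± 0.714 against 28.7 ± 2.13 for Incenp, 20.3 ± 0.580 for Birc5 and 1.66 ± 0.170 for Aurkb (SD, n = 3). With dexamethasone, Incenp (119 ± 4.29) and Birc5 (110.2 ± 3.36) stood above Cdca8 (78.8 ± 3.20). The ratio of Birc5 to Cdca8 went from 0.413 to 0.448 in the controls to 1.31 to 1.51 with dexamethasone, and that of Incenp to Cdca8 from 0.583 to 0.671 to 1.43 to 1.56. The Aurora kinases also changed relative to each other. Aurka was 1.62 to 2.33 times Aurkb per kb in the controls and 0.992 to 1.04 times with dexamethasone. All levels per kb rest on the exon lengths in the table, such as 2358 bases for Aurka and 4404 for Aurkb. Which gene stands higher therefore depends on those lengths, while the change of a ratio between groups does not.

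**Figure D2:**
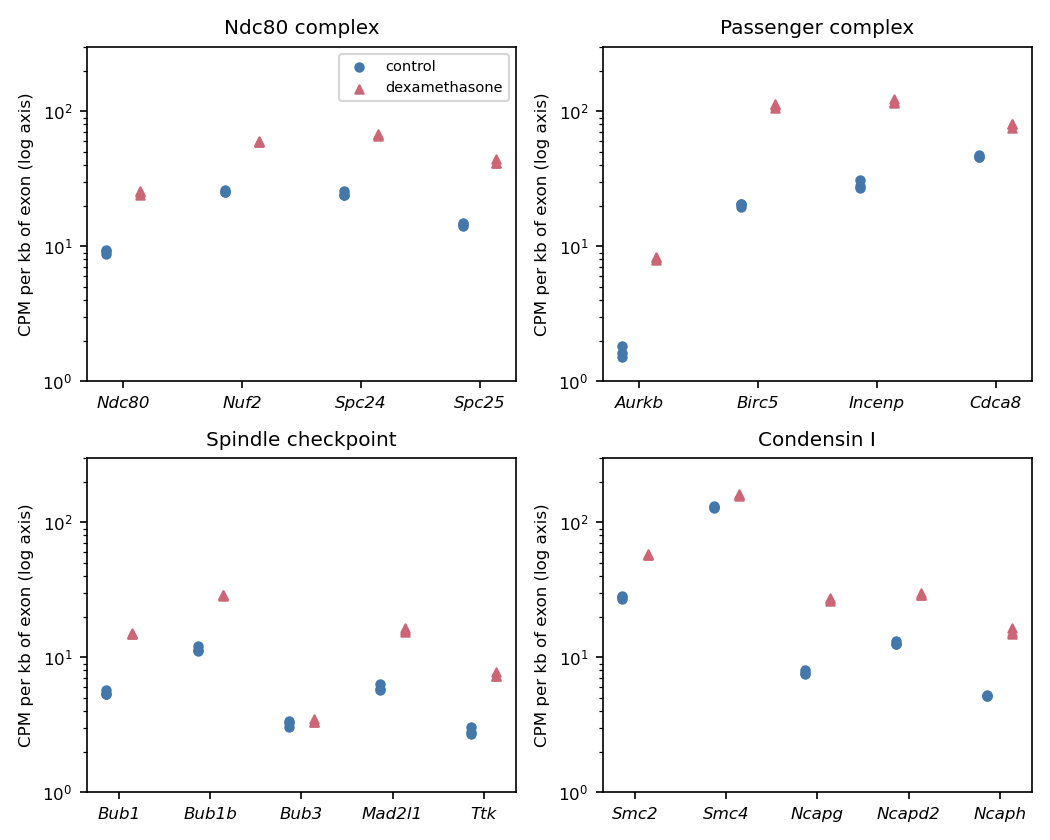
Level per kb of exon (TMM-scaled CPM per kb, log axis) for subunits of 4 assemblies, with circles for the 3 control libraries and triangles for the 3 dexamethasone libraries. Birc5 and Incenp pass Cdca8 with dexamethasone, Bub3 stays near 3 CPM per kb while the other checkpoint genes move up, and Smc4 lies above the other condensin genes in both groups.

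Genes of the switch from metaphase to anaphase differed among themselves. Espl1, which encodes separase, the protease that cuts cohesin, had 5.57, 7.42 and 6.97 CPM in control libraries and 28.2, 27.0 and 27.4 CPM after dexamethasone (log2 2.05 ± 0.13). Pttg1, its inhibitor securin, had 6.25, 6.43 and 6.54 CPM against 16.9, 16.9 and 18.7 CPM (1.45 ± 0.052). The separase gene thus rose more than that of its inhibitor: per kb, Espl1 was 0.136 to 0.176 of Pttg1 in the controls and 0.224 to 0.255 with dexamethasone. Cdc20, which activates the APC/C, had 24.0, 21.8 and 23.1 CPM against 45.1, 41.6 and 41.1 CPM (0.89 ± 0.058, adjusted p = 1.3e-18). Ube2c, an APC/C ubiquitin-conjugating enzyme, had 13.1, 9.78 and 11.3 CPM against 17.7, 16.1 and 14.8 CPM. Its groups did not overlap but lay close, and its log2 fold change of 0.51 ± 0.14 (adjusted p = 4.5e-06) was not called at a preset coefficient of variation of 0.2 (adjusted p = 0.110). RefSeq lists 5 genes or pseudogenes named after Ube2c, the most for any of the 42.

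Among spindle assembly genes, Nusap1, a microtubule-bundling protein, had 14.3, 15.5 and 14.9 CPM in control libraries and 52.9, 53.6 and 55.8 CPM after dexamethasone (log2 1.86 ± 0.040). Tpx2, which activates Aurora A on the spindle, had 123, 131 and 132 CPM against 282, 279.9 and 264 CPM (1.10 ± 0.043). Hmmr, a spindle protein that is also a hyaluronan receptor, had 127, 125 and 124 CPM against 173, 172 and 178 CPM. Although its groups were cleanly apart, its log2 fold change was only 0.48 ± 0.020 (adjusted p = 1.1e-17) and was not called at a preset coefficient of variation of 0.2 (adjusted p = 0.136).

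The cytokinesis genes among the 42 rose together. Anln, which encodes the cleavage-furrow scaffold anillin, had 54.2, 54.4 and 55.3 CPM in control libraries and 164, 174 and 171 CPM after dexamethasone (log2 1.63 ± 0.027). Prc1, which bundles midzone microtubules, had 234, 238 and 234 CPM against 537, 539 and 544 CPM (1.201 ± 0.0098). Ect2, the exchange factor that activates RhoA at the furrow, went from 33.8, 32.8 and 32.5 CPM to 71.1, 72.9 and 73.8 CPM (1.14 ± 0.023). The 3 genes passed with adjusted p of at most 2.9e-26.

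**Figure D3:**
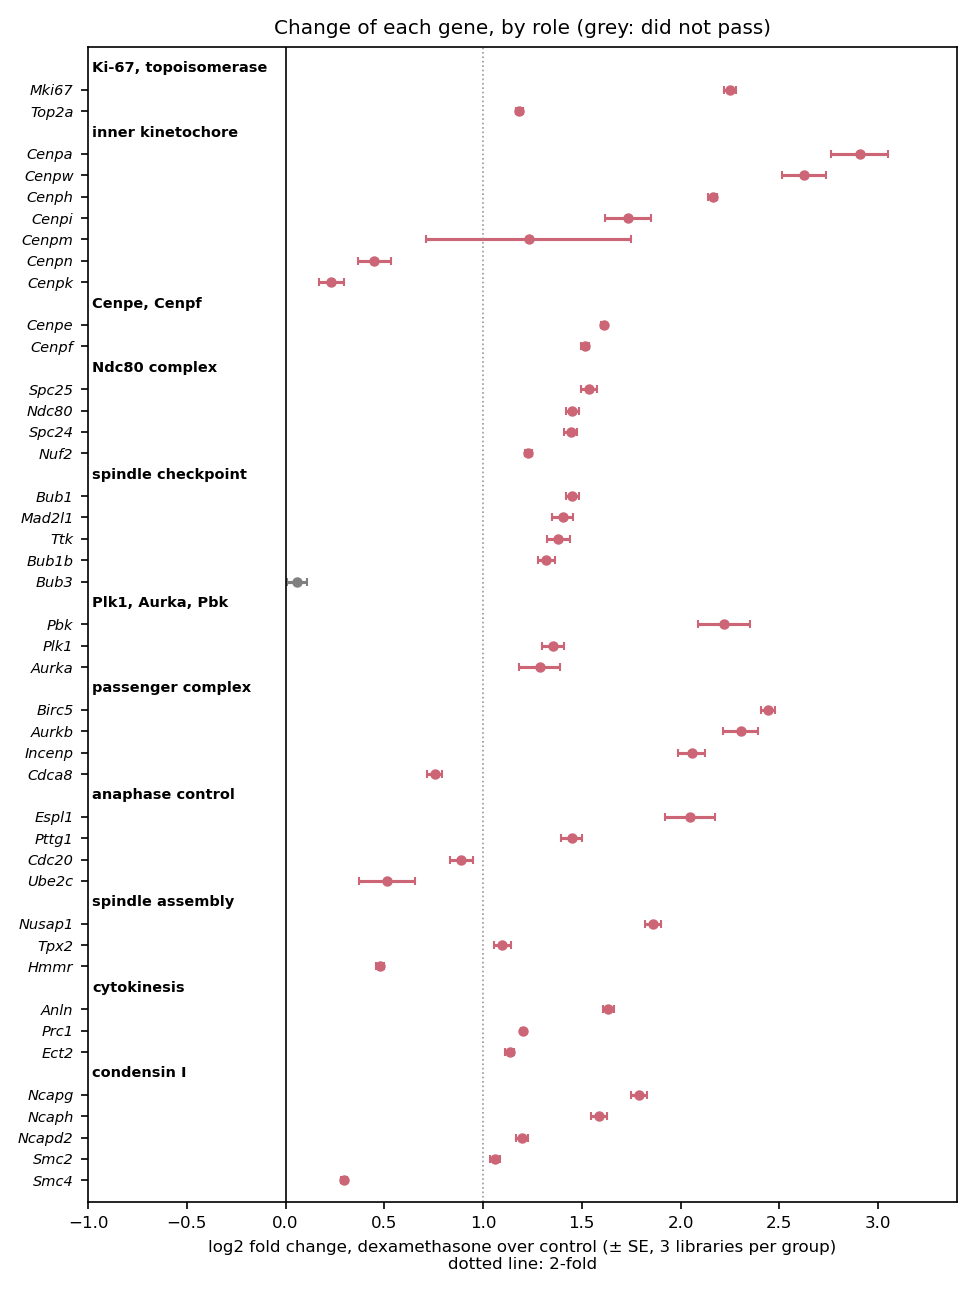
Log2 fold change, dexamethasone over control, of the 42 genes grouped by role. Points are estimates with bars of ± 1 SE (3 libraries per group), and the dotted line marks 2-fold. Most genes lie to the right of the dotted line. Those to its left are Cenpn, Cenpk, Bub3, Cdca8, Cdc20, Ube2c, Hmmr and Smc4, Bub3 being the grey point that did not pass.

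Condensin I is a ring of Smc2 and Smc4 closed by Ncaph, with Ncapd2 and Ncapg bound to it. Smc4 (chromosome 2, 165601007 to 165629415), with 549.9, 559 and 542 CPM in the controls, was already the most abundant of the 42 per kb, at 129.7 ± 2.06 CPM per kb (SD, n = 3). With dexamethasone it had 674, 684 and 669 CPM, a log2 fold change of 0.30 ± 0.016 (adjusted p = 8.0e-14) that was not called at a preset coefficient of variation of 0.2 (adjusted p = 0.427). Smc2 (chromosome 5, 68717519 to 68763850) went from 144, 153 and 149.5 CPM to 308, 315 and 310.2 CPM (1.06 ± 0.025). The ATPase partners therefore changed by unequal amounts, and Smc2 per kb went from 0.207 to 0.218 of Smc4 in the controls to 0.360 to 0.366 with dexamethasone.

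The subunits that are particular to condensin I rose more. Ncapg had 25.3, 27.2 and 25.8 CPM in control libraries and 91.3, 92.2 and 87.0 CPM after dexamethasone (log2 1.79 ± 0.041). Ncaph had 15.0, 14.7 and 14.8 CPM against 46.9, 44.2 and 42.6 CPM (1.59 ± 0.041), and Ncapd2 had 55.2, 52.4 and 52.0 CPM against 124, 120.4 and 121 CPM (1.196 ± 0.030). Condensin II shares Smc2 and Smc4 but has its own partners of these subunits. Ncapg2, Ncaph2 and Ncapd3 rose by 0.79 ± 0.030, 0.79 ± 0.052 and 0.73 ± 0.047. In each case the condensin I gene gained on its condensin II counterpart, which restates these fold changes as ratios. Ncapg was 2.28 to 2.48 times Ncapg2 per kb in the controls and 4.38 to 4.88 times with dexamethasone. Ncaph was 0.247 to 0.270 of Ncaph2 against 0.441 to 0.454, and Ncapd2 was 2.50 to 2.91 times Ncapd3 against 3.67 to 3.75 times.

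Across the 42 genes, those with lower control levels tended to rise more. Spearman's rho between the control level per kb and the log2 fold change was -0.40 over 42 genes, and 0.05 between exon length and the log2 fold change. These are descriptions across genes of the same libraries, which share depth and scaling and are not independent replicates, and a control level enters both sides of the first. The 42 genes lie on 15 chromosomes, with 8 on chromosome 3.

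Partners of the 42 in the same pathways were read from lists of other genes, and both directions occurred among them. Of 105 such genes tested, 81 rose, 13 fell and 11 were not called, at a median log2 change of 0.65, beside 32.3% rising over all tested genes. Of 20 mitotic entry regulators, 18 rose and 0 fell, with a median of 1.2. Foxm1, a transcription factor of mitotic genes, had 4.82, 5.75 and 5.17 CPM in control libraries and 13.95, 15.1 and 15.4 CPM after dexamethasone (log2 1.49 ± 0.085). Mybl2, which binds mitotic promoters with the MuvB complex, had 25.3, 22.6 and 24.4 CPM against 92.7, 90.7 and 90.1 CPM (1.92 ± 0.050). Melk and Nek2, mitotic kinases, rose by 2.90 ± 0.17 and 1.53 ± 0.052.

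Of 11 other inner kinetochore genes tested, 11 rose, with a median of 1.496, and 10 rose with DESeq2 and without control replicate 2, dexamethasone replicate 1 or dexamethasone replicate 2. The weakest call was Cenpl, named after its value was seen (log2 0.47 ± 0.35, adjusted p = 0.0455, groups overlapping). Those with the smallest p were Hjurp, the chaperone that loads CENP-A (17.75 ± 0.109 to 66.7 ± 0.914 CPM, SD, n = 3), Cenpu and Cenpt, with log2 fold changes of 1.91, 2.26 and 2.07. Exons of Cenpt overlap Tsnaxip1, so some reads may belong to that gene. Of 14 other outer kinetochore genes, 11 rose, 1 fell and 2 were not called, at a median of 0.71. Kntc1, Ska3 and Spdl1 had the smallest p there and rose by 1.89, 1.52 and 1.16. Exons of Ska3 overlap Mrpl57 by 161 bases. The member that fell, Dsn1 (log2 -0.12, adjusted p = 0.0202), and those that did not pass, Mis12 and Zw10, are named after their values were seen. The call of Dsn1 was lost in 7 of 14 other settings, among them library size alone and the fits that leave out a library from either group: control replicate 2, control replicate 3, dexamethasone replicate 2 and dexamethasone replicate 3 (adjusted p of these 5 settings from 0.0536 to 0.118).

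The APC/C core and cohesin also act outside mitosis. The APC/C core list of 15 genes also holds Fzr1, an activator of the complex like Cdc20, named after its value was seen. Of the 15, 9 rose (Fzr1 among them, log2 0.33), 4 fell and 2 were not called, at a median of 0.22 and no change reaching 2-fold. Those with the smallest p were Anapc5 (0.37), Cdc23 (0.50) and Anapc7 (-0.39), and at a preset coefficient of variation of 0.2 or against a fold of 1.5 no APC/C core gene was called. Exons of Cdc23 overlap Kif20a. Of 15 cohesin genes, 8 rose, 5 fell and 2 were not called, at a median of 0.10, and at a preset coefficient of variation of 0.2 or against a fold of 1.5 the counts were 4 and 0. The falls in both lists, 4 and 5 of 15, were near the background of 31.7% over all tested genes. The rises, 9 and 8 of 15, stand beside 32.3%. Of the 15 cohesin genes, 4 rose at least 2-fold, beside 8.65% of all tested genes. These were Sgo2 and Sgo1, which protect centromeric cohesin, Esco2, which acetylates cohesin in S phase, and Cdca5 (sororin), the last named after its value was seen. They rose by 1.98, 1.26, 2.35 and 1.19, whereas the ring subunits Smc1a, Smc3 and Rad21, named likewise, rose by 0.24, 0.31 and 0.26. Of the Sgo2 exon bases, 2722 are shared with Kctd18, so its reads may be mixed.

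Of 19 other spindle genes, 16 rose, 2 fell and 1 was not called, at a median of 0.85. Aspm and Spag5, spindle-pole proteins, rose by 1.92 and 1.96. Haus7, a subunit of the augmin complex that branches spindle microtubules, went the other way, from 218.8, 206 and 212 CPM to 36.6, 33.2 and 34.3 CPM (log2 -2.61 ± 0.048, adjusted p = 1.8e-42). Haus8 (-0.38), named after its value was seen, was the other gene that fell, while Haus1, Haus3, Haus4, Haus5 and Haus6, named likewise, rose by 0.50 to 1.13. Of 8 other cytokinesis genes, 5 rose, 1 fell (Pdcd6ip, log2 -0.33, named after its value was seen) and 2 did not pass. The median of the 8 was 0.24. Cit, Cep55 and Racgap1 rose by 1.55, 1.23 and 1.22. At a preset coefficient of variation of 0.2 or against a fold of 1.5, 3 of these cytokinesis genes rose and 0 fell, and 1 of the spindle genes fell.

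**Figure D4:**
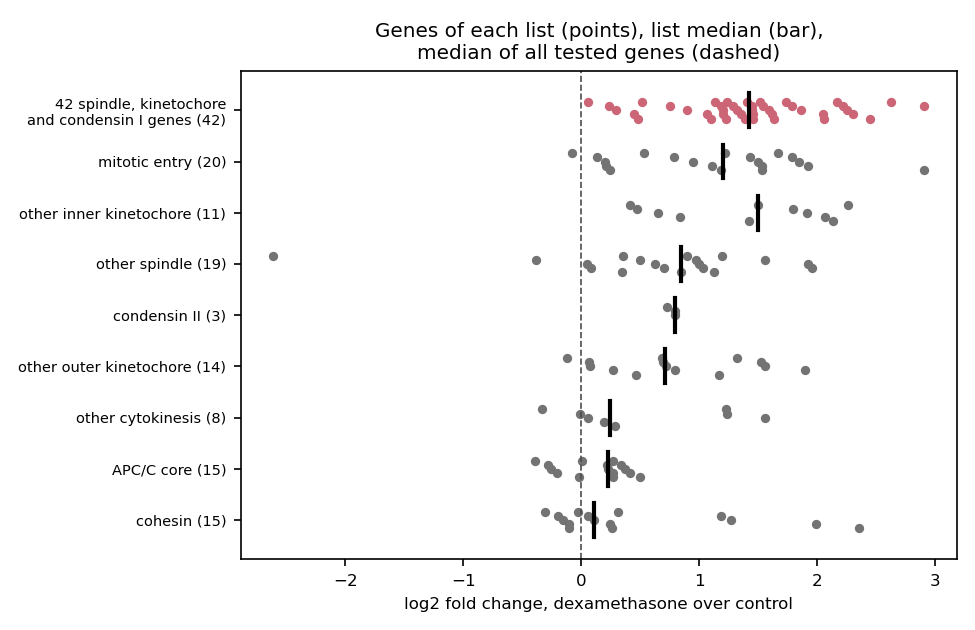
Log2 fold change, dexamethasone over control, of the 42 genes and of the tested genes of 8 other lists, with each gene as a point, the list median as a bar and the median of all tested genes as a dashed line. The median is 1.42 for the 42 genes, 1.2 for mitotic entry, 0.22 for the APC/C core and 0.10 for cohesin, and the point far to the left is Haus7.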

How the data were processed

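The deposited file held read counts per gene for all 6 libraries, with exon positions and lengths, per the file headers. Other values in the table (exon length in bases) were used only for levels per kb. The aligner, counter and strand setting were not stated in the sources used here. The build was mm10, a mouse build, per the submitters' processing notes, but the table held rat symbols and coordinates, which are printed as it gives them. Even values were over-represented among low counts: 70.3% of values from 1 to 20 counts were even, against 50.6% of values of 1000 or more.

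Genes were filtered with filterByExpr (14111 kept, 16100 left out), scaled by TMM and fitted by the quasi-likelihood method of edgeR 4.0.16 under R 4.3.3 (robust, no covariate), with Benjamini-Hochberg adjustment over all tested genes and a threshold of 0.05. The common biological coefficient of variation was 3.66%. Levels are TMM-scaled CPM, and standard errors come from log2 CPM (prior count 2). DESeq2 1.42.0 and limma 3.58.1 were run as alternatives. Within each group, pairs of libraries differed by more than sampling noise (chi-square per gene 1.38 to 2.16 on counts divided by 2), so each was entered as a library of its own. That spread does not show whether the libraries were separate cultures, since technical differences can also give it. Counts were divided by 2 for this statistic in case both reads of a pair had been counted, which was not tested. Copies and pseudogenes were looked up by symbol in RefSeq (GRCr8), where 42 of 42 symbols matched. No gene or protein sequences were used here.

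The members and lists were chosen with earlier results of these data known. Any of the 42 genes could be named. Of each other list the 3 tested genes with the smallest p were named, with condensin II, Foxm1 and Mybl2 in any case, and other genes only where said.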

Additional observations from a re-analysis of the deposited data

How the results depend on the processing

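Of the 42 genes, 41 rose with DESeq2, limma-voom, DESeq2 size factors in edgeR, library size alone, no filter on low counts and without each library in turn, and the same 41 genes were called each time. Their median log2 fold change ranged from 1.41 to 1.46 over 14 settings. Called genes fell from 9027 to 2827 against a fold of 1.5 (1549 up, 1278 down) and to 3693 with the coefficient of variation set to 0.2 (1993 up, 1700 down), and called genes of the other pathway lists from 94 to 53 and 55. These settings ask for a larger change or assume more spread. With the replicate number as a block, 41 of the 42 rose and 8991 of all genes were called. Same-numbered libraries did not deviate together (correlations of 0.003, -0.008 and 0.020), so no pairing by number was visible in the values. Whether same-numbered libraries shared an animal or culture cannot be told from this, since a small shared effect could go unseen. Among the 42, Cenpw and Cenpm had few counts in the controls, 114 and 123 over 3 libraries.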

Other observations

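Some of the 42 genes start close to another gene on the opposite strand. By the table's own exon positions, 5 of the 42 had such a neighbour within 1000 bases upstream of their start, and 37 did not. Neighbours whose start lies inside a member were not counted, so Cenpk, which overlaps Ppwd1 by 329 bases, is among the 37. These neighbours were picked by position. Nusap1 starts 64 bases from Oip5, which encodes a factor that helps load CENP-A, and both rose (log2 1.86 ± 0.040 and 1.80 ± 0.27, SE). Smc4, the condensin gene with the smallest rise, starts 259 bases from Ift80, which encodes a cilium transport protein. Ift80 had 40.1, 36.4 and 35.9 CPM in control libraries and 46.4, 44.1 and 46.4 CPM after dexamethasone, and its log2 fold change of 0.29 ± 0.056 was close to the 0.30 ± 0.016 of Smc4. Hmmr starts 304 bases from Nudcd2, which rose by 0.19 ± 0.10 (adjusted p = 0.0412, edgeR's quasi-likelihood test). Cdca8, the passenger gene with the smallest rise, starts 93 bases from RGD1560436, which fell (log2 -0.45 ± 0.17, adjusted p = 0.00821). The neighbour of Cdc20, 824 bases away, held 2 counts in all and was not tested. Whether neighbours share control was not tested.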
